A study of Mus musculus with 3 samples.

Results

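Interferon-stimulated genes, which cells switch on when they receive type I interferon or sense foreign nucleic acid, were followed across 3 cultures of C2C12, a mouse myoblast line. The list held 42 genes, chosen by name. A probe belonged to a gene when its RefSeq accession matched the gene's record, and 55 probes of 38 members were found in this way, out of 18348 named genes on the array. No probe could be named for Mx1, Mx2, Oas1b and Dtx3l. Each culture was hybridised as Cy3-labelled RNA to 1 one-colour Agilent whole mouse genome array, so there were no replicates and no p-value could be given. All 3 arrays lay on 1 slide and were scanned on 1 day.

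The first culture was untreated C2C12 myoblasts. The second, BIO cellulates, started from C2C12 myotubes formed in 2% horse serum over 8 days, with 10 µM AraC from day 2 to day 4. Myoseverin, a microtubule-binding compound, was used for 48 h to divide these into cellulates. They were given the GSK-3 inhibitor BIO for 2 days, started 24 h after myoseverin. The third, neurogenic cellulates, received in addition 250 nM reversine for 48 h and 7 days of neurogenic medium, which was DMEM/F12 with N2 and 1.5 µM all-trans retinoic acid. The sources differ on doses, with 2.5 or 10 µM BIO and 20 or 30 µM myoseverin. No array of drug-free myotubes, or of cellulates that saw no BIO, was analysed here. The effects of differentiation, of AraC, of myoseverin and of BIO therefore cannot be told apart, nor can those of medium, reversine, retinoic acid and time. Nothing in the sources says how many dishes stand behind an array, and with bulk RNA more expressing cells and more RNA per cell cannot be told apart.

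Type I interferon binds the receptor IFNAR1-IFNAR2 and activates the kinases JAK1 and TYK2. These set off the transcription factor complex ISGF3, which contains STAT2 and IRF9. ISGF3 binds the interferon-stimulated response element, a pair of GAAA repeats near the start of its target genes, and IRF family factors recognise much the same letters. The products include RNA sensors, enzymes that degrade or edit viral RNA, proteins that trap virions, and the ubiquitin-like modifier ISG15.

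The element was looked for in RefSeq promoter windows of build GRCm38.p6, which run from 250 bases before to 50 bases after a gene's start, and 32 members had such a window. The letters searched were GAAA, any 2 bases, and GAAA again, on either strand, with overlapping matches allowed. A match was present in 16 of the 32 members and in 3.99% of all 27025 genes with a window. Among members with RNA measured on at least 1 array, 8 of 16 held a match, and among members dim on every array 8 of 15 did. The stretches below show a match, in capitals, of 5 members with measured RNA and 3 members that stayed dim, all from before the gene's start and on the gene's own strand.
Isg15, chr4:156200855-156200916, minus strand, with 3 overlapping matches: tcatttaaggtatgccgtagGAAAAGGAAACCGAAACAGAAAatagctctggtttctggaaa
Oas3, chr5:120777705-120777754, minus strand: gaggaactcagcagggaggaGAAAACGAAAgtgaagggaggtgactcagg
Bst2, chr8:71537567-71537622, minus strand, with 2 overlapping matches: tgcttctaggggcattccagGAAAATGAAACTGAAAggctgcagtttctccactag
Gbp2, chr3:142620584-142620633, plus strand, matched on the opposite strand: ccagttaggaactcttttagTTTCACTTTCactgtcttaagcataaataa
Rsad2, chr12:26456543-26456592, minus strand, matched on the opposite strand: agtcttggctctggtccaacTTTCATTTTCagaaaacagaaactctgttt
Ifit1, chr19:34640784-34640833, plus strand, matched on the opposite strand, the nearer of 2 separate matches, dim on all arrays: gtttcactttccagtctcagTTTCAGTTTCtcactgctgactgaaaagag
Ifit3, chr19:34583387-34583436, plus strand, matched on the opposite strand, the nearer of 2 separate matches, dim on all arrays: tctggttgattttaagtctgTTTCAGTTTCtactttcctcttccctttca
Oas1a, chr5:120907526-120907565, minus strand, with 2 overlapping matches, dim on all arrays: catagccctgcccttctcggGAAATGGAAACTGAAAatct
The windows of Oas1f, Irf7, Oasl1, Ifi35, Xaf1, Irf1, Adar and Trim25, whose RNA was measured on all 3 arrays, held no match. A match is a description of the letters, and none of these data shows a factor binding there.

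Of the 38 members with a probe, 16 were well above background on all 3 arrays, 3 on 2 arrays, 1 on the neurogenic array alone and 18 on none. Of all 18348 named genes, 5141 were well above background on none. On the myoblast, BIO and neurogenic arrays 44.7%, 47.4% and 52.6% of members were well above background, against 67.3%, 63.8% and 62.4% of genes. Levels below are log2 signal over the 75th percentile of the same array, so 0 means a signal equal to that percentile, and the lowest levels called well above background were -3.73 in myoblasts, -2.73 in BIO cellulates and -2.57 in neurogenic cellulates. Of the 16 members measured on all arrays, 14 were highest in neurogenic cellulates, against 19.3% of the 10666 genes so measured, and 14 were lowest in myoblasts, against 35.1%. Trim25 was highest in myoblasts and Xaf1 in BIO cellulates, while Irf1 and Trim25 were lowest in BIO cellulates. With each array scaled to its median, Adar, Bst2, Ifi35 and Parp14 too were lowest in BIO cellulates, as Adar was after normexp background correction and on spike-in scaling. Rsad2 was highest in BIO cellulates after normexp correction, where its log2 ratio between the cellulate cultures was -0.027. The exceptions turned too: Xaf1 was highest in neurogenic cellulates on spike-in scaling, and the ratio of neurogenic cellulates over myoblasts for Trim25 became 0.11 with the median over probes. Irf1 had BIO over myoblast ratios from -0.75 to 0.31 over the alternatives.

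**Figure D1:**
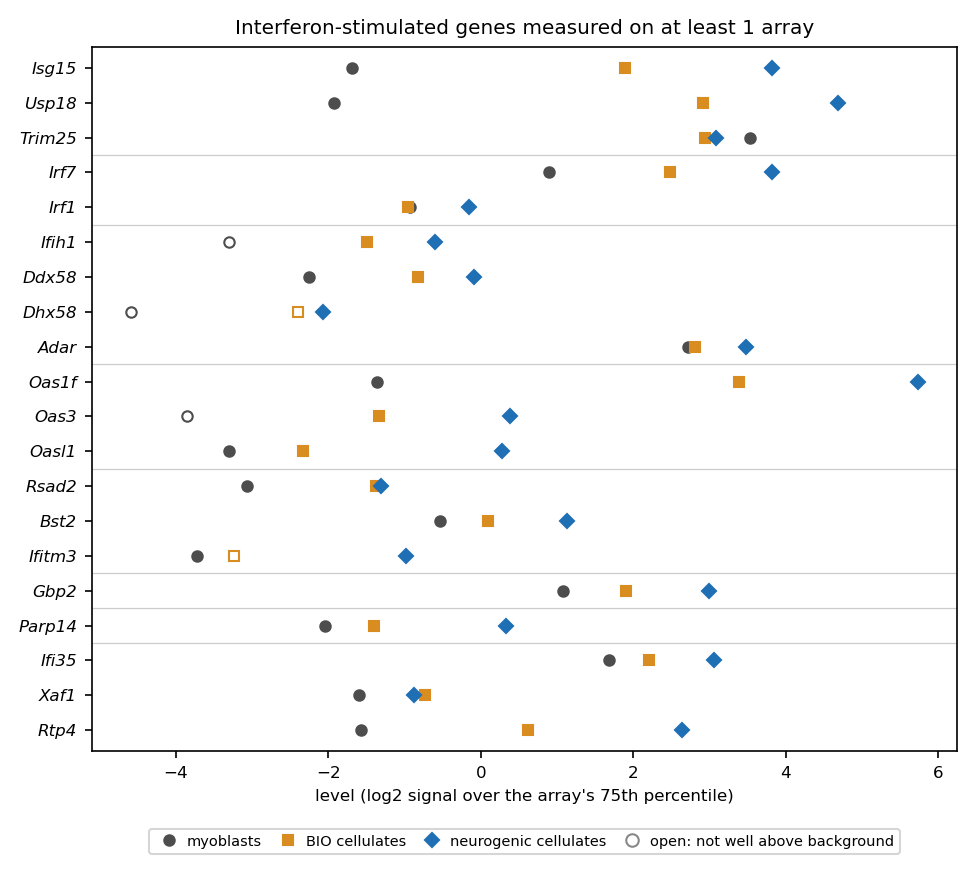
Level of the 20 interferon-stimulated genes measured on at least 1 array, as log2 signal over the array's 75th percentile; each gene has 1 point per array, open where it was not well above background, and grey lines part the functional groups. Most genes step to the right from myoblasts to BIO cellulates to neurogenic cellulates, as Oas1f does from -1.36 to 3.39 to 5.73, whereas Trim25 and Xaf1 do not; levels of different genes cannot be compared, since each comes from its own probe.

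BIO cellulates against myoblasts answered how the drug-treated cellulates differed from the line they came from. Among the 16 members measured on both arrays, 7 had a BIO signal of 2-fold or more over myoblasts and 0 were lower, against 8.43% and 6.13% of the 11185 genes measured on both, and the members' median log2 ratio was 0.93 against 0.010. Ifih1 and Oas3, measured on the BIO array alone, add 2 lower bounds, for 9 of 19 members higher and 0 lower, against 11.2% and 6.01% of genes when such bounds count. With scaling to the array median these counts became 6 higher and 1 lower, and the shares of all genes 2.88% and 28.8%. Isg15, Usp18, Oas1f, Oas3 and Rtp4 passed 2-fold under every alternative that gave them a value, 5 of the 9, while Irf7, Ddx58, Ifih1 and Rsad2 did not. Dim genes as a whole had higher ratios than bright ones. In a split made after the values were seen, genes with a mean level from -4 to -2 had a median log2 ratio of 0.74 and 30.4% of them were at least 2-fold higher, and Rsad2 and Oasl1 lay in that range. Of these 2 members 1 was at least 2-fold higher. From -2 to 0 it was 2 of 6 members, against 10.1% of genes. Between levels 0 and 2, where the median over 2459 genes was -0.089 and 5.82% were at least 2-fold higher, 4 of 6 members were. At levels from 2 upward 0 of 2 members were, against 3.27%. The mean level includes the BIO signal, so a member high in BIO cellulates falls in a brighter range.

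Neurogenic against BIO cellulates asked what the neurogenic step added. There 10 of 18 members measured on both arrays were at least 2-fold higher and 0 lower, against 2.45% and 1.41% of 10875 genes, with a median of 1.06 against -0.18. With bounds counted, 11 of 20 members were higher and 0 lower, against 4.16% and 1.80% of genes. Of these 11, the 7 that passed 2-fold under every alternative that gave them a value were Isg15, Usp18, Irf7, Oas1f, Oasl1, Gbp2 and Rtp4. Neurogenic cellulates against myoblasts, which shares its arrays with both other comparisons, gave 13 of 17 members higher and 0 lower, against 9.35% and 11.0% of 10885 genes. With bounds this was 16 of 20, against 12.1% higher and 10.0% lower, and the 4 others were Irf1, Adar, Xaf1 and Trim25. Scaling to the array median gave 13 members higher and 1 lower, against 5.05% and 38.9% of genes. Under every alternative that gave a value 12 of the 16 passed 2-fold, the exceptions being Bst2, Dhx58, Ifi35 and Rsad2. Repeat measurements existed only inside an array, for probes with 10 spots. For them 95% of ratios between single spots would lie within 1.40-fold, 1.34-fold and 1.35-fold in the 3 comparisons, and this leaves out any difference between cultures.

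**Figure D2:**
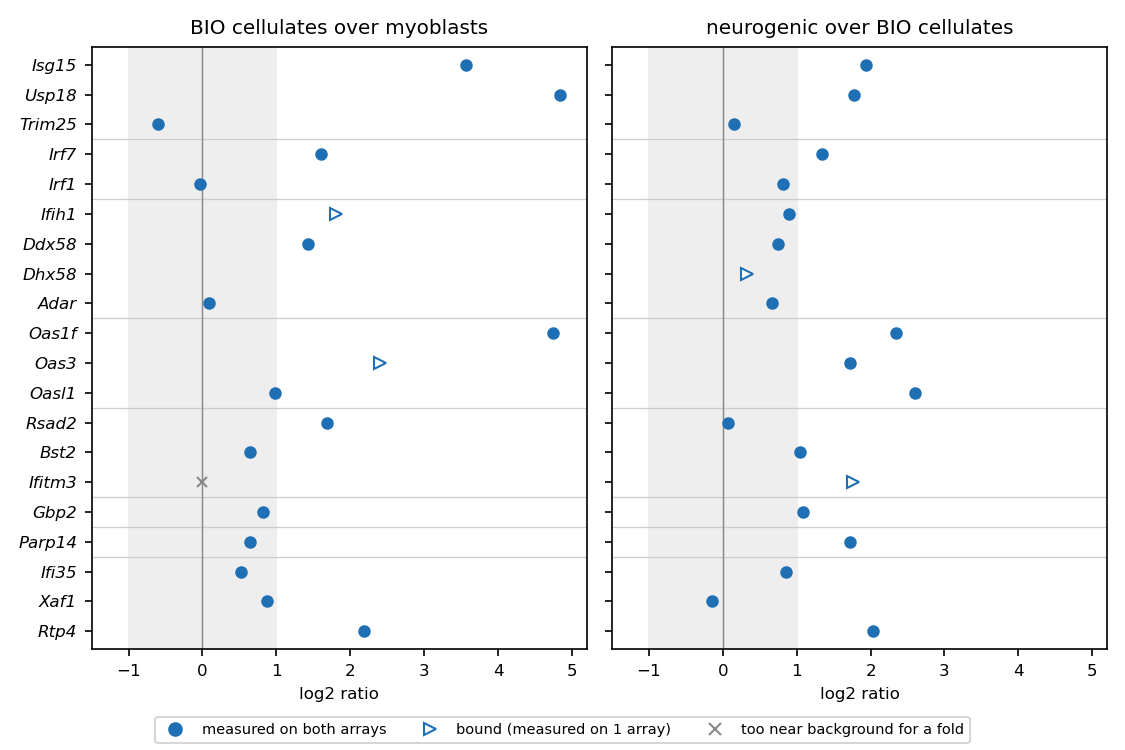
Log2 ratio of the same 20 genes in BIO cellulates over myoblasts (left) and in neurogenic over BIO cellulates (right); filled points were measured on both arrays, triangles are lower bounds, a cross marks a gene too near background for a fold, and the grey band covers less than 2-fold. No gene lies left of the band in either panel, and Oas1f, Usp18, Isg15, Irf7, Rtp4 and Oas3 lie right of it in both; the panels share the BIO array.

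The ISG15 system held some of the widest differences. ISG15 is a ubiquitin-like protein that is attached to other proteins, and USP18 removes it and also damps signalling from the interferon receptor. Isg15 had levels of -1.68 in myoblasts, 1.89 in BIO cellulates and 3.83 in neurogenic cellulates, from intensities of 56.4, 426 and 2210. It was 11.9-fold higher in BIO cellulates than in myoblasts and 3.83-fold higher again in neurogenic cellulates, or 45.6-fold higher overall. Usp18 had levels of -1.92, 2.92 and 4.69 on the same arrays. Its folds were 28.7 and 3.42 for the separate steps and 98.1 for neurogenic cellulates over myoblasts. Both genes were thus lowest in myoblasts and highest in neurogenic cellulates, and among genes measured on both arrays Usp18 ranked 22 of 11185 in the first step and 5 of 10885 over both steps.

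The ligase and conjugating enzyme genes of the system looked different. Trim25, a ubiquitin and ISG15 ligase that also activates the sensor RIG-I, had levels of 3.53, 2.94 and 3.08, with log2 ratios of -0.60 and 0.15 for the successive steps, the first being -1.31 with scaling to the array median. Its other probe was dim on all arrays. Ube2l6, the conjugating enzyme for ISG15, was dim on every array at levels of -3.31, -3.02 and -3.21. Herc6, the mouse ISG15 ligase, was dim too, by both of its probes.

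Among transcription factors, Irf7, which amplifies interferon production and is itself an interferon target, went from a level of 0.89 in myoblasts to 2.49 in BIO cellulates and 3.83 in neurogenic cellulates. That is 3.03-fold higher in the first step, 2.53-fold in the second and 7.65-fold over both. Irf1, a factor that responds to both interferon types, had levels of -0.93, -0.96 and -0.15, within 0.03 of each other in myoblasts and BIO cellulates. Its ratio of neurogenic over BIO cellulates was 1.76-fold, under the 2-fold mark, but 1.71 on the log2 scale with the median over its probes and 1.16 on spike-in scaling, and its second probe was well above background on the neurogenic array alone. Stat2 and Irf9, which encode parts of ISGF3, were dim on all arrays. Irf9 reached -3.12 in neurogenic cellulates by the brighter of its 2 probes, below the -2.57 that marks the lowest signal well above background there.

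The cytosolic sensors of double-stranded RNA were higher in cellulates where they could be measured. Ddx58, which encodes RIG-I, had levels of -2.25, -0.82 and -0.08 by the brightest of its 4 probes, the other three being dim throughout. It was 2.69-fold higher in BIO cellulates than in myoblasts and 1.67-fold higher in neurogenic than in BIO cellulates. Ifih1, the MDA5 sensor gene, was dim in myoblasts at -3.31 and measured at -1.49 and -0.60 in the cellulates, at least 3.51-fold and at least 6.51-fold over myoblasts. Dhx58, whose product LGP2 modulates both sensors, was measured in neurogenic cellulates alone, at -2.06, where it was at least 3.18-fold higher than in myoblasts. Between the cellulate cultures Ddx58 and Ifih1 were under 2-fold as processed here, but their log2 ratios reached 1.09 and 1.24 among the alternatives. Dhx58 was dim in BIO cellulates, and its bound of at least 1.26-fold cannot show whether it passed 2-fold there.

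Adar, which edits adenosine to inosine in double-stranded RNA, had levels of 2.72, 2.81 and 3.48. Its log2 ratios were 0.09 in the first step and 0.67 in the second, and its second probe, also measured on all arrays, gave 0.07 and 0.46. The first ratio turned to -0.63 with scaling to the array median, so it has no stable sign. Eif2ak2, the RNA-activated kinase PKR, and the Z-nucleic acid sensor gene Zbp1 were dim on all arrays.

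The OAS family includes enzymes that make 2'-5' oligoadenylate and so activate RNase L, though not every member need have this activity, which was not measured here. The family held both the widest difference of the list and several dim genes. Oas1f had levels of -1.36, 3.39 and 5.73, from intensities of 70.4, 1201 and 8287. It was 26.9-fold higher in BIO cellulates than in myoblasts, 5.09-fold higher again in neurogenic cellulates, and 137-fold higher over both, where it ranked 4 of 10885 genes. Oas3 was dim in myoblasts at -3.85 and measured at -1.33 and 0.39, a BIO signal at least 5.27-fold over that in myoblasts, and it was 3.30-fold higher again in neurogenic cellulates. Its second probe did not follow, since it was well above background in BIO cellulates alone, at -2.17, and dim in neurogenic cellulates at -2.74.

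Oasl1, an OAS-like gene whose product limits the translation of Irf7, had levels of -3.30, -2.33 and 0.28. The first step, 1.97-fold, came from signals near background, and the second was 6.09-fold, rank 27 of 10875. Oas1a, Oas1g, Oas2 and Oasl2 were dim on all arrays, with Oas1a at -4.56, -4.77 and -4.60. The Oas1 genes are close relatives in a cluster on chromosome 5, and how far the Oas1f probe may also bind their transcripts was not tested. The promoter windows of Oas1a and Oas1g carry the same letters around their matches.

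The antiviral effectors were measured less evenly. Bst2, the tetherin that holds budding virions at the cell surface, had levels of -0.54, 0.10 and 1.14, and was 2.05-fold higher in neurogenic than in BIO cellulates and 3.19-fold higher than in myoblasts. Ifitm3, which blocks virus entry from endosomes, was at the edge of detection in myoblasts (-3.72) and dim in BIO cellulates (-3.23), but reached -0.98 in neurogenic cellulates. That was at least 3.38-fold over BIO cellulates and 6.71-fold over myoblasts. Rsad2, the gene of viperin, had levels of -3.07, -1.38 and -1.31. It differed in the first step, by 3.22-fold, and hardly in the second, by 1.05-fold. Its 2 other probes were dim throughout, as was its genomic neighbour Cmpk2, a nucleotide kinase gene.

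Of the other measured members, Rtp4 differed most. Rtp4, a chaperone of membrane receptors, had levels of -1.57, 0.61 and 2.64, so it was 4.56-fold and then 4.08-fold higher, and 18.6-fold over both steps. Parp14, an ADP-ribosyltransferase gene, had -2.04, -1.39 and 0.33, with folds of 1.57 and 3.30, and its 2 other probes were dim. Gbp2, an interferon-inducible GTPase, had levels of 1.09, 1.91 and 2.99 and was 1.77-fold and then 2.12-fold higher. Ifi35 had 1.68, 2.21 and 3.06, with folds of 1.44 and 1.81, and 2.60 over both. Xaf1, which antagonises the apoptosis inhibitor XIAP, had -1.60, -0.72 and -0.87 and was under 2-fold in every comparison as processed here. The first step turned negative with scaling to the array median for Bst2 (-0.081), Parp14 (-0.070) and Ifi35 (-0.19).

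The IFIT family, which binds foreign RNA ends and is among the most inducible groups in an interferon response, was not well above background on any array. Ifit1 was at -4.77, -5.02 and -4.43, Ifit2 at -4.66, -4.72 and -4.57, and Ifit3 at -5.80, -4.32 and -4.18. Gbp3, Ifi44, Parp9 and Trim21 were also dim on all arrays. The 19 members dim in both myoblasts and BIO cellulates had a median log2 ratio, as measured, of 0.99, against 1.01 for all 5450 genes dim on both, so no difference can be read from them. For neurogenic over BIO cellulates the same medians were 0.16 and 0.12. A dim probe may also be one that binds its target poorly, which was not tested.

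The genes upstream of the list were described from lists of interferon genes, receptors, signalling proteins and sensing adaptors. Of 8 interferon genes with a probe, Ifna2, Ifna5 and Ifnl3 were measured on all arrays, at levels between -2.52 and -1.42, and 0 passed 2-fold among them. Ifna4 and Ifnk were measured in BIO cellulates alone, at -2.33 and -1.88, at least 2.65-fold and 3.61-fold over myoblasts, though after normexp correction these bounds were under 2-fold, at 0.71 and 0.80 on the log2 scale. Ifnb1, Ifng and Ifne were dim on all arrays. Among receptors, Ifnar2 had levels of 4.23, 5.05 and 5.05, but its second probe gave log2 ratios of 0.04 and 0.03. Ifngr2 had -2.41, -1.75 and -1.07, 2.54-fold higher in neurogenic cellulates than in myoblasts. On the log2 scale this fell under 2-fold with normexp (0.63), quantile normalization (0.98) and array-median scaling (0.62). Its second probe, also measured on all arrays, gave log2 ratios of 1.63 in the first step and 0.009 in the second. Il10rb had 1.88, 1.59 and 1.64. Ifnar1, Ifngr1 and Ifnlr1 were dim throughout.

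In the signalling list, both measured kinase genes passed 2-fold. Jak1, which serves every interferon receptor, had levels of -2.48, -1.84 and -0.04 and was 3.47-fold higher in neurogenic than in BIO cellulates, and its second probe was measured in neurogenic cellulates alone. Jak2 was 2.99-fold higher in BIO cellulates than in myoblasts, with 1.64, 3.22 and 2.78, and its second probe gave nearly the same ratio, 1.60 on the log2 scale against 1.58. The call for Jak1 ended with normexp correction, at a log2 ratio of 0.72, and that for Jak2 with scaling to the array median, at 0.86. Tyk2 was dim.

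By the probe used, the feedback and phosphatase genes of the list, with Stat3, differed by less than 2-fold in every comparison. Stat3 had levels of 6.18, 6.49 and 6.06, and the phosphatase gene Ptpn11 had 5.58, 5.58 and 5.31. The feedback inhibitor genes Socs1 and Socs3 had -0.15, -0.27 and 0.23, and 4.75, 4.20 and 4.49. Pias1 had -0.22, -0.72 and -0.75 and Ptpn6 had 1.31, 1.89 and 1.72. The second probe of Ptpn6, also measured on all arrays, differed, with log2 ratios of -1.09 in the first step and 0.72 in the second. Of 11 sensing and adaptor genes measured on both arrays, 0 passed 2-fold in either step, with medians of 0.11 and -0.26. Over all genes so measured the medians were 0.010 and -0.18. Of those genes 8.43% were higher and 6.13% lower in the first step, and 2.45% and 1.41% in the second. In so short a list, 0 is near these shares. Tlr3, the endosomal receptor for double-stranded RNA, was measured in myoblasts alone, at -1.31, and was at least 2.69-fold lower in BIO cellulates, though with the median over its 2 probes no fold was left. Ikbke was measured in BIO cellulates alone, at least 3.13-fold over myoblasts. After normexp correction this bound was under 2-fold, at 0.69 on the log2 scale.

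**Figure D3:**
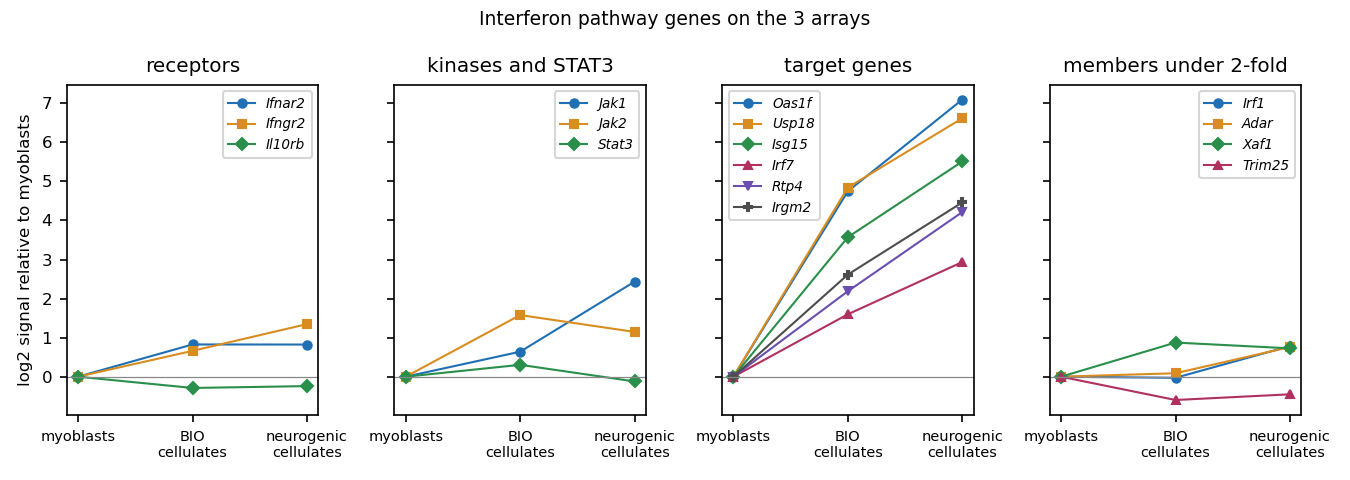
Log2 signal relative to myoblasts for interferon pathway genes measured on all 3 arrays, by role: receptors, kinases and STAT3, 6 target genes with wide differences (Irgm2 is not on the list), and the 4 members under 2-fold in neurogenic cellulates over myoblasts; each point is 1 array, and lines join the points of a gene. The 6 target genes, drawn for their size, end between 2.94 and 7.10, and the 4 other members between -0.45 and 0.78. The upstream genes drawn end between -0.24 for Il10rb and 2.43 for Jak1.

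Markers of other cell types were read on the same scale. All 10 myoblast and muscle markers were measured on every array, among them Myod1 at 0.62, 0.98 and 0.58. Of 11 macrophage and leukocyte markers with a probe, 4, 4 and 5 were well above background in myoblasts, BIO and neurogenic cellulates, and their summed signal was 13.9, 12.7 and 10.9 times the 75th percentile. Ptprc, Adgre1, Itgam, Lyz2, Tyrobp and Cd52 were dim on all arrays, while Cd14, Csf1r, Fcer1g and Coro1a were measured on all. Cd14 had levels of 2.98, 2.32 and 1.85, and Laptm5, measured in neurogenic cellulates alone, was at least 2.69-fold over myoblasts there. The part of such cells in the values above was not tested. Of 6 endothelial markers, Vwf alone was measured, and their summed signal was 0.481, 0.798 and 0.712. The muscle markers had summed signals of 216, 1372 and 1300. All these sums add different probes and are led by the brightest. For muscle these were Cdh15 in myoblasts, at a level of 7.07, and Acta1 in BIO and neurogenic cellulates, at 10.1 and 10.0. In BIO cellulates over myoblasts 6 of 10 muscle markers were at least 2-fold higher and 1, Cdh15, lower, against 8.43% and 6.13% of genes measured on both arrays. The part of differentiation in the values above was not tested.

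**Figure D4:**
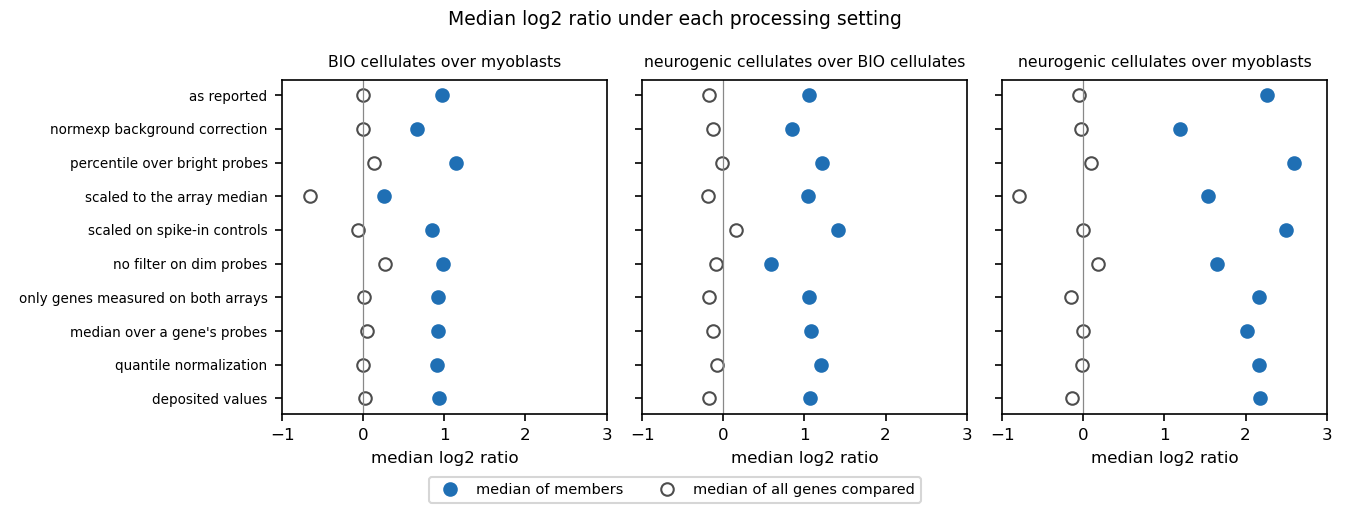
Median log2 ratio of the interferon-stimulated genes (filled) and of all genes compared (open) in each comparison, under the reported processing and 9 alternatives named on the vertical axis. The filled point lies right of the open one in every row, though both shift with scaling to the array median, where BIO cellulates over myoblasts gave 0.26 for the members and -0.65 for all genes.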

How the data were processed

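Groups came from the sample labels. The intensity of a spot, on a linear scale and already background-subtracted, was written by Feature Extraction 10.7.3.1, per the file headers. The authors' deposited table is on the log2 scale: a column differs from log2 intensity by one constant (0.00, 0.67 and 0.23 for myoblasts, BIO and neurogenic cellulates), is not centred by gene, and has a median of 7.42, 7.77 and 7.88. Why the constants differ slightly from the differences in log2 75th percentile (0.00, 0.66 and 0.22) is unknown. Columns belonging to other samples numbered 0.

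Control spots and outlier-flagged spots were left out. Each log2 intensity was taken relative to the array's 75th percentile among non-control spots (181, 115 and 156 units), then averaged per probe. Of 43379 non-control spots, 50.7%, 46.9% and 45.7% were well above background and 0 were saturated. Accessions named 26918 of 41174 probes through the RefSeq table of GRCm38.p6. The headers name another build, so only promoter coordinates are given, from RefSeq. Where several probes named a gene, the brightest on average was used. A fold from a gene measured on 1 of 2 arrays is a bound, with the dim array set at its own signal or at its lowest level well above background, whichever was higher. A bound under 1-fold counts as a ratio of 0. Genes whose other probes were well above background where the used one was dim were left out of counts. The ratio step was tested on simulated data in which bright probes alone were shifted. That test did not cover bounds or the choice among a gene's probes. Every member with a measured probe is named, as are up to 6 genes of each pathway list that passed 2-fold, and all interferon, receptor and signalling genes, except 1 gene of these lists that is not reported here though the lists' counts and medians include it. Members and lists were chosen with earlier results of these data known. Alternatives were normexp correction, 4 other scalings, 2 filters, the median over probes, and the deposited values. Normexp (limma 3.58.1, offset 50) used median spot signals because the files hold no mean signals. Only 1 array stood behind each group, which limits the precision of every value.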

Additional observations from a re-analysis of the deposited data

How the results depend on the processing

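Across the 9 alternatives, no member or pathway gene at least 2-fold different changed sign, though the bound for Tlr3 became 0.00 with the median over probes, and the members' median stayed above that of all genes compared in each comparison. The median for BIO cellulates over myoblasts was 0.98 with bounds, and fell to 0.66 with normexp correction and 0.26 with scaling to the array median, where the median of all genes was -0.65, so the gap between them was 0.91. For neurogenic over BIO cellulates the median of 1.06 became 0.58 with no filter on dim probes, 0.84 with normexp and 1.41 on spike-in scaling. For neurogenic cellulates over myoblasts the median of 2.27 became 2.02 with the median over probes, 1.65 with no filter, 1.19 with normexp, 2.59 with the percentile over bright probes, 2.50 on spike-ins and 1.54 with scaling to the array median. With no filter, 17 members passed 2-fold upward in BIO cellulates over myoblasts and 26 in neurogenic cellulates over myoblasts, since dim probes then count. Normexp left 7 in neurogenic over BIO cellulates, and scaling to the array median put 1 member, Trim25, lower than in myoblasts in both cellulates. Over all genes, that scaling turned 1440 higher and 771 lower in BIO cellulates over myoblasts into 369 and 3701, and 1557 and 1291 in neurogenic cellulates over myoblasts into 649 and 4997. For the same comparisons normexp gave 301 and 734, and 527 and 1149, and, for neurogenic over BIO cellulates, 200 and 70 against 510 and 220. With no filter the 3 splits were 4385 and 1029, 5118 and 1538, and 1032 and 619, in that order. Normexp was run with an offset of 50 units added to each signal, which narrows ratios between weak signals. Its share in these shifts, and the cause of the others, was not tested. Counting a gene's ratio once per alternative, 690 moved by less than 1 SD of single-spot ratios and 393 by more. Of the 690, 99 came from the filter to genes measured on both arrays, which cannot change a ratio. Another 99 came from the deposited values, which differ from the intensities by a constant per array. With normexp, spike-in and array-median scaling 85, 86 and 83 moved by more, against 43, 42 and 45 by less. No paired analysis was possible because each group had 1 array. Signal over background limits the 18 dim members.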

Other observations

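Other known interferon targets, from a list that holds none of the 42 members, gave smaller medians than the members. Among 24 measured on both arrays, 4 passed 2-fold upward from myoblasts to BIO cellulates and 1 downward, against 8.43% and 6.13% of all genes so measured, with a median of 0.21 against 0.010. In neurogenic over BIO cellulates 1 of 25 was higher and 0 lower, against 2.45% and 1.41%, with a median of 0.22 against -0.18. In neurogenic cellulates over myoblasts 8 of 23 were higher and 1 lower, against 9.35% and 11.0%, with a median of 0.36 against -0.15. Trim34a, a TRIM ligase gene, had levels of -0.10, 1.33 and 2.43 and was 5.77-fold higher over both steps. Its other probes gave log2 ratios of 2.40 and 0.44. Parp10, an ADP-ribosyltransferase gene, had 2.12, 3.75 and 4.53, or 5.31-fold over both. Lgals3bp was 3.82-fold higher over both, Ifi27 at least 5.16-fold and Trim30a at least 3.90-fold. After normexp correction Lgals3bp was under 2-fold, at a log2 ratio of 0.96. The lower bounds for Ifi27 and Trim30a then fell under 2-fold, at 0.99 and 0.75 on the log2 scale.

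In a list of genes known for their response to interferon-gamma, 3 of 9 compared were at least 2-fold higher and 0 lower in the first step, bounds counted, against 11.2% and 6.01% of genes, with a median of 0.061 against 0.00. In neurogenic over BIO cellulates 1 of 8 was higher and 0 lower, against 4.16% and 1.80%, and over both steps 3 of 9 were higher and 0 lower, against 12.1% and 10.0%. By the probe used, Irgm1, Irf8, Gbp5 and Tgtp1 stayed under 2-fold in each comparison, with log2 ratios between -0.43 and 0.51. They were named after their values were seen, as was Ciita. The second probe of Irgm1 was dim in myoblasts, at -5.13, and measured in neurogenic cellulates alone, at -2.09. Ciita, measured in myoblasts alone at -2.21, was at least 1.44-fold lower in BIO cellulates and 1.28-fold lower in neurogenic cellulates. Such bounds cannot show whether Ciita passed 2-fold. Irgm2, an immunity-related GTPase gene, had levels of 1.29, 3.90 and 5.75. It was 6.12-fold higher in BIO cellulates than in myoblasts and 3.60-fold higher again in neurogenic cellulates, 22.1-fold over both. Ido1 was 2.54-fold higher in the first step and Nlrc5 at least 2.26-fold, and Igtp was 2.06-fold higher over both. After normexp correction none of these 3 values, a lower bound for Nlrc5, reached 2-fold. Of the 16 genes of that list, 7 were dim on all arrays.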
